A study of Mus musculus with 24 samples.

Results

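The 9 genes described here encode amino acid transporters of the kidney: Slc3a1, Slc7a9, Slc7a13, Slc7a7, Slc7a8, Slc6a18, Slc6a19, Slc6a20b and Slc1a1. They were taken by gene symbol from the kidney table of 37315 genes, of which 20563 had a count in at least 1 kidney library. Each of the 9 genes reached 50 pooled allelic counts in each of the 3 kidney groups, so allelic imbalance (AI) was estimated for each of them in each group. The study used 24 samples, of which 18 are kidney libraries made from aliquots of the same total RNA. That RNA came from the left kidney of 1 untreated adult female F1 mouse of a 129S1/SvImJ x CAST/EiJ cross. The groups are NEBNext (100 ng), prepared with the NEBNext Ultra poly-A kit from 100 ng of RNA, and SMARTseq (10 ng) and SMARTseq (100 pg), prepared with the SMARTseq v4 kit from 10 ng and 100 pg. Each group holds 6 libraries. Kit and input changed together between NEBNext and SMARTseq and cannot be told apart there, whereas the SMARTseq groups differ in input. Because the libraries are technical replicates of the same RNA from 1 animal, the p-values below measure the spread between library preparations and not between mice.

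In the proximal tubule, transporters of the brush border recover amino acids from the filtered fluid, and transporters of the basolateral membrane pass them on to the blood. Several work as heteromers, in which a heavy chain brings a light chain that carries the substrate to the membrane. Loss of single members in people is known to cause amino acid loss in the urine, as in cystinuria for SLC3A1 and SLC7A9, lysinuric protein intolerance for SLC7A7 and Hartnup disorder for SLC6A19.

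The values are allelic counts, made from reads that overlap a SNP between the parental strains and can be given to an allele. They are counted at each SNP and summed over the SNPs of a gene. A read that covers several SNPs is therefore counted several times, and the counts are not all separate reads. AI is the share of a gene's allelic counts in the maternal column of the table, so that 0.5 means equal counts from both alleles. The level of a gene is given in counts per 1000000 allelic counts of the library (CPM), and is compared only within a gene, since the number of SNPs and the length differ between genes. Total allelic counts per library were 6138693 to 6702351 for NEBNext (100 ng), 6360257 to 6397679 for SMARTseq (10 ng) and 6587951 to 6616994 for SMARTseq (100 pg). The quality correction constant (QCC), the factor by which the spread of AI between replicate libraries exceeds binomial sampling, averaged 1.85, 1.47 and 2.59 over the 15 pairs of libraries in these groups, and was 1.73 for NEBNext (100 ng) without replicate 1, the library that stood apart. Of 14 imprinted genes with 50 pooled counts, 13 had more counts in the column opposite to the allele they are known to express, though Slc22a18 (AI 0.484) and Phlda2 (AI 0.460) among them were near even. For this reason "maternal" is used below only as the name of a column. The 9 proximal tubule markers, which include Lrp2, Cubn and Slc34a1, were each detected. Their summed level was 22445 to 23767 CPM in NEBNext (100 ng), 12461 to 12696 CPM in SMARTseq (10 ng) and 13432 to 14283 CPM in SMARTseq (100 pg). Of these markers 8 had a lower mean in both SMARTseq groups, and Gatm a higher one, at 535, 1505 and 1520 CPM. The sums of the thick ascending limb, distal convoluted tubule and podocyte markers were also lower in every SMARTseq library. In NEBNext (100 ng) they were 3867 to 4348, 1034 to 1116 and 198 to 232 CPM. In the SMARTseq libraries they were 2232 to 2492, 327 to 433 and 90.4 to 128 CPM. Cldn16 of the thick ascending limb went the other way, with means of 45.1, 59.2 and 61.4 CPM. The distal convoluted tubule sum was Slc12a3 alone, since Pvalb had 0 counts. The sum of 3 endothelial markers was also lower, at 428 to 506 CPM in NEBNext (100 ng) against 362 to 423 CPM. The sum of 4 immune markers was higher, with group medians of 77.8, 132 and 147 CPM. Of these markers, 2 had a lower mean in both SMARTseq groups. The sum of 4 collecting duct markers was higher, at 1120 to 1224 CPM in NEBNext (100 ng), 1791 to 1868 CPM in SMARTseq (10 ng) and 2262 to 2385 CPM in SMARTseq (100 pg). Most of it was Aqp2, with means of 1012, 1681 and 2160 CPM, while Atp6v1b1 had means of 63.9, 41.8 and 51.1 CPM. All marker levels are relative to library totals. On that scale the median log2 change of all genes from NEBNext (100 ng) was -0.40 for SMARTseq (10 ng) and -0.39 for SMARTseq (100 pg). Other scalings were not applied to the markers, so the direction of small shifts, such as the endothelial one, may depend on the scaling. Since the groups hold the same RNA, they hold the same cells. The part of these marker shifts in the levels of the transporters was not tested. In whole kidney RNA the number of proximal tubule cells and the RNA per cell cannot be told apart.

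When kit or input changed, the AI differences that stood out against the spread between libraries were those of Slc6a18 and Slc6a19, and most of the other transporters had no called AI difference. The AI of Slc6a18 was 0.528 ± 0.008 in NEBNext (100 ng), 0.411 ± 0.014 in SMARTseq (10 ng) and 0.501 ± 0.022 in SMARTseq (100 pg) (mean ± SD, n = 6 libraries each). The AI of its neighbor Slc6a19 was 0.578 ± 0.007, 0.519 ± 0.016 and 0.520 ± 0.021 in the same order (mean ± SD, n = 6 libraries each). Slc7a13 was strongly skewed in every library, with an AI between 0.0542 and 0.198. Levels changed more often than AI did. Between NEBNext (100 ng) and SMARTseq (10 ng), the basolateral light chain gene Slc7a8 and Slc1a1 had the largest log2 changes of the members. These were -1.05 ± 0.04 and -1.01 ± 0.14 (edgeR under the TMM scaling described below, ± SE), which does not settle their order. Slc7a8 was at 389 ± 9 CPM in NEBNext (100 ng) and 146 ± 8 CPM in SMARTseq (10 ng) (mean ± SD, n = 6 libraries each).

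**Figure D1:**
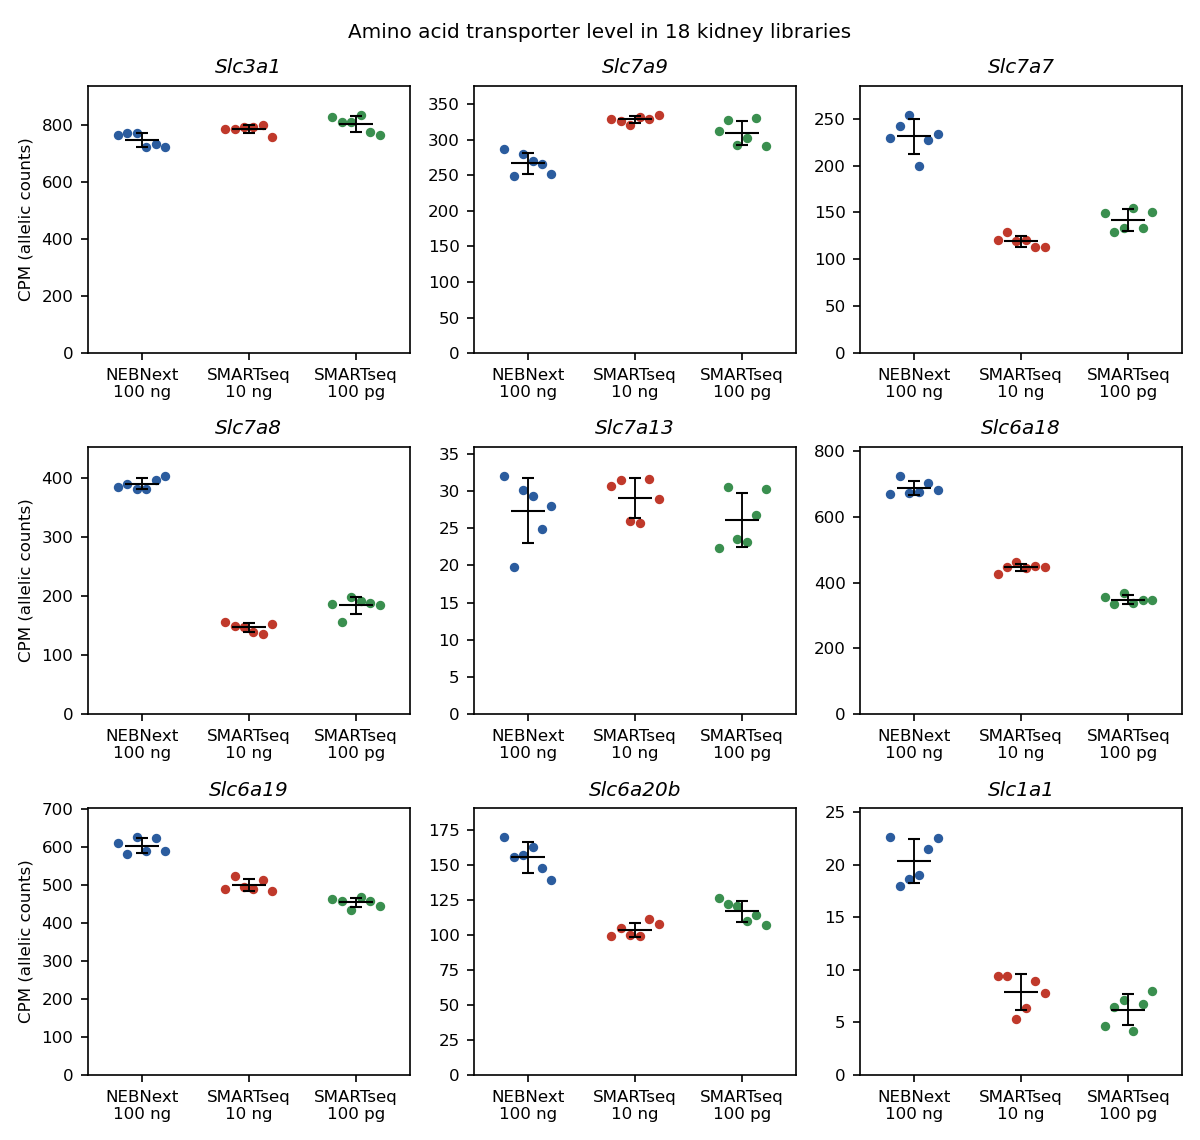
Level of each of the 9 transporters (y axis, CPM of allelic counts, starting at 0) in the 6 libraries of each kidney group (points), with the mean and SD (horizontal line and bars). Slc7a8 lay between 380 and 403 CPM in the NEBNext libraries and between 136 and 197 CPM in the SMARTseq libraries, while the groups overlapped for Slc3a1 and Slc7a13.

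The apical system for cystine and dibasic amino acids consists of the heavy chain rBAT, encoded by Slc3a1 (ENSMUSG00000024131, GRCm38 chr17:85028376-85064236, plus strand), and the light chain b0,+AT, encoded by Slc7a9 (ENSMUSG00000030492, chr7:35448796-35466036, plus strand). Slc7a13 (ENSMUSG00000041052, chr4:19818725-19842218, plus strand) encodes AGT1, a further light chain known to pair with rBAT in the last segment of the proximal tubule. Slc3a1 overlaps Prepl on the opposite strand, and regions shared by genes were left out of the counts. The RefSeq promoter windows of Slc3a1 and Slc7a9 (GRCm38.p6, 250 bases before to 50 bases after an annotated start) are shown because these heteromer partners are the members whose level was higher in the SMARTseq libraries under both scalings described below. The Slc3a1 window spans chr17:85028097-85028396 on the plus strand, and capitals mark matches to the motifs searched on both strands. The motifs were the TATA box as TATAAA, the HNF4 motif as CAAAGTCCA, the HNF1 half-site as GTTAAT, the palindromic HNF1 motif and the direct repeat of AGGTCA with 1 base between. Slc7a9 has 2 windows in the table and neither holds a match, so the one shown, chr7:35448842-35449141 on the plus strand, has no capitals.
Slc3a1: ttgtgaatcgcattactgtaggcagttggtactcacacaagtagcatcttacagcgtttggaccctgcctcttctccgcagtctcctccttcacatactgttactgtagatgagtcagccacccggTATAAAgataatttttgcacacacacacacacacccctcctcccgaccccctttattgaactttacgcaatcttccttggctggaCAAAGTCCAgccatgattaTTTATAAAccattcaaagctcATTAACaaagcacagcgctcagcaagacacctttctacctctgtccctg
Slc7a9: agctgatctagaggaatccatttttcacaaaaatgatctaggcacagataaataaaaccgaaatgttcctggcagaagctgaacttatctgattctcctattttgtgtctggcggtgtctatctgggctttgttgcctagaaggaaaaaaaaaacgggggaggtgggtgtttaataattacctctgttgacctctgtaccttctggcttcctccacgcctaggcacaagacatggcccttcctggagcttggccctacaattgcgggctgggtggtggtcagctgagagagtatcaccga

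The Slc3a1 window holds the letters CAAAGTCCA, a form of the direct repeat bound by HNF4A, the factor that drives many proximal tubule genes. CAAAGTCCA occurs in 0.475% of the 32851 promoter windows in the table. TATAAA occurs in it in 3 places, and 2 of these overlap on opposite strands, and 13.6% of all windows hold it. GTTAAT, part of the HNF1 motif, lies on the opposite strand just after the start and is in 7.10% of all windows. The AGGTCA repeat and the palindromic HNF1 motif were in 0.0396% and 0.00913% of windows and in none of the 12 windows of the 7 members that have one. Slc7a13 and Slc6a18 have no window in this table. These matches are letters in a window. The windows shown were chosen by the level of their genes, but no link between the matches and any level was tested. All kidney libraries hold the same RNA, so the levels differ here between preparations of it.

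Slc3a1 was at 722, 748 and 772 CPM in NEBNext (100 ng) (lowest, median and highest library), at 756, 789 and 799.8 CPM in SMARTseq (10 ng), and at 764, 810.0 and 836 CPM in SMARTseq (100 pg). The SMARTseq libraries were on average higher in CPM, but the ranges of all groups overlapped. With edgeR's quasi-likelihood test under TMM scaling, Slc3a1 was 0.43 ± 0.03 higher on the log2 scale (± SE) in SMARTseq (10 ng) than in NEBNext (100 ng) (Benjamini-Hochberg adjusted p = 1.47e-13), and 0.46 ± 0.03 higher in SMARTseq (100 pg) (adjusted p = 2.74e-10). With library totals as the scale, these Slc3a1 differences were 0.07 (adjusted p = 0.0206) and 0.10 (adjusted p = 0.00746). Between the SMARTseq groups the difference was 0.03 ± 0.02, with a 95% interval from -0.02 to 0.08 (adjusted p = 0.473).

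The AI of Slc3a1 was the most even of the members across groups. Its lowest, median and highest library AI were 0.405, 0.430 and 0.447 in NEBNext (100 ng), 0.409, 0.423 and 0.433 in SMARTseq (10 ng), and 0.413, 0.425 and 0.437 in SMARTseq (100 pg). The paternal column thus held more counts in each of the 18 libraries, and the groups overlapped. Pooled AI was 0.429 over 28487 counts in NEBNext (100 ng), with a QCC-corrected 95% interval of 0.418 to 0.440, and it differed from 0.5 in each group. The AI differences between groups, on the log2 odds scale, were between -0.04 and 0.02, and none passed (edgeR, adjusted p = 0.670 to 0.956).

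Slc7a9, the light chain partner of Slc3a1, was at 249, 268 and 287 CPM in NEBNext (100 ng), 321, 330 and 336 CPM in SMARTseq (10 ng), and 291, 307 and 331 CPM in SMARTseq (100 pg). Every SMARTseq library was above every NEBNext library, and the SMARTseq groups overlapped each other. Slc7a9 rose by 0.66 ± 0.04 (log2, ± SE) from NEBNext (100 ng) to SMARTseq (10 ng) (edgeR, adjusted p = 1.19e-14) and by 0.56 ± 0.05 to SMARTseq (100 pg) (adjusted p = 7.72e-09), and by 0.30 and 0.21 with library totals. Between the SMARTseq groups the change was -0.09 ± 0.04, which missed the threshold (adjusted p = 0.0931) but passed it without SMARTseq (100 pg) replicate 2 (adjusted p = 0.0466) or replicate 5 (adjusted p = 0.0334).

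The alleles of Slc7a9 were close to even in the pooled counts, with an AI of 0.489 in NEBNext (100 ng), 0.5002 in SMARTseq (10 ng) and 0.478 in SMARTseq (100 pg), and no group differed from 0.5. The single libraries spread widely, from 0.435 to 0.577 in NEBNext (100 ng) and from 0.417 to 0.512 in SMARTseq (100 pg), against 0.478 to 0.509 in SMARTseq (10 ng). The SD between libraries was 4.06 and 3.51 times that of binomial sampling in the first and last of these groups, the highest ratios among the 9 members there, and 1.06 times in SMARTseq (10 ng).

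Slc7a13 had few counts and the strongest skew. Its level was 19.8, 28.6 and 32.1 CPM in NEBNext (100 ng), 25.7, 29.8 and 31.6 CPM in SMARTseq (10 ng), and 22.4, 25.1 and 30.5 CPM in SMARTseq (100 pg), and the groups overlapped. Under TMM scaling Slc7a13 was 0.45 ± 0.11 higher in SMARTseq (10 ng) than in NEBNext (100 ng) (edgeR, adjusted p = 5.48e-04). With library totals as the scale, the value was 0.08 and missed the threshold (adjusted p = 0.473). From NEBNext (100 ng) to SMARTseq (100 pg) it differed by 0.28 ± 0.14 (adjusted p = 0.0714), which passed the threshold without NEBNext replicate 1 (adjusted p = 0.0408) or SMARTseq (100 pg) replicate 1 (adjusted p = 0.0450).

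The AI of Slc7a13 was 0.0719, 0.0896 and 0.109 in NEBNext (100 ng) (lowest, median and highest), 0.0542, 0.129 and 0.149 in SMARTseq (10 ng), and 0.0743, 0.115 and 0.198 in SMARTseq (100 pg). The paternal column was higher in all 18 libraries, and in the pooled counts it held 9.89, 7.98 and 6.90 times as many counts as the maternal column. Pooled AI was 0.0919 (QCC-corrected 95% interval 0.0644 to 0.129, 1045 counts), 0.111 (1113 counts) and 0.127 (1035 counts), different from 0.5 in each group. Of all genes with 50 pooled counts, 2.10%, 2.23% and 2.72% had an AI below 0.15 in the respective groups. The groups did not pass the test against each other, and the 95% intervals of the log2 odds differences were wide, from -0.22 to 0.82 between NEBNext (100 ng) and SMARTseq (10 ng) (edgeR, adjusted p = 0.581).

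The basolateral light chains y+LAT1 and LAT2 are encoded by Slc7a7 (ENSMUSG00000000958, chr14:54369442-54417780, minus strand) and Slc7a8 (ENSMUSG00000022180, chr14:54722209-54781946, minus strand), 304428 bases apart on the same chromosome. Both pair with the heavy chain encoded by Slc3a2. Slc7a7 exports dibasic amino acids in exchange for neutral ones, and Slc7a8 exchanges neutral amino acids. Slc7a7 overlaps Oxa1l on the opposite strand.

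Slc7a7 was at 199, 231 and 254 CPM in NEBNext (100 ng), 113, 119.9 and 129 CPM in SMARTseq (10 ng), and 129, 141 and 155 CPM in SMARTseq (100 pg). No group overlapped another, although the highest library at 10 ng and the lowest at 100 pg differed by less than 1 CPM. Slc7a7 fell by 0.59 ± 0.05 on the log2 scale from NEBNext (100 ng) to SMARTseq (10 ng) (edgeR, adjusted p = 5.74e-11) and rose by 0.25 ± 0.06 from there to SMARTseq (100 pg) (adjusted p = 0.00504). With library totals the first of these Slc7a7 values was -0.96.

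Slc7a8 showed the same order of groups with a larger change. It was at 380.3, 387 and 403 CPM in NEBNext (100 ng), 136, 148 and 156 CPM in SMARTseq (10 ng), and 155, 187 and 197 CPM in SMARTseq (100 pg). All SMARTseq libraries lay far below the NEBNext libraries, and the SMARTseq groups overlapped through 1 library, SMARTseq (100 pg) replicate 2. Slc7a8 was 2.07-fold lower in SMARTseq (10 ng) than in NEBNext (100 ng) under TMM scaling, a log2 change of -1.05 ± 0.04 (edgeR, adjusted p = 5.46e-19), against -1.41 with library totals. It was higher by 0.32 ± 0.05 at 100 pg than at 10 ng (adjusted p = 4.30e-04).

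The heavy chain Slc3a2, no member of the list, was at 897 to 979.6 CPM in NEBNext (100 ng), 649 to 681 CPM in SMARTseq (10 ng) and 793 to 886 CPM in SMARTseq (100 pg), with the lowest values at 10 ng as for Slc7a7 and Slc7a8. It fell by 0.14 ± 0.03 on the log2 scale from NEBNext (100 ng) to SMARTseq (10 ng) (edgeR, adjusted p = 6.11e-05) and rose by 0.31 ± 0.03 from there to SMARTseq (100 pg) (adjusted p = 3.19e-07), in the same direction under library totals. Against NEBNext (100 ng), Slc3a2 at 100 pg was 0.16 ± 0.04 higher under TMM scaling but changed by -0.19 with library totals.

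Both basolateral genes had more counts in the paternal column in all 18 libraries. The library AI of Slc7a7 was 0.394, 0.413 and 0.456 in NEBNext (100 ng), 0.355, 0.377 and 0.398 in SMARTseq (10 ng), and 0.333, 0.405 and 0.441 in SMARTseq (100 pg). The library AI of Slc7a8 was 0.362, 0.396 and 0.433, then 0.430, 0.442 and 0.458, then 0.366, 0.409 and 0.451 in the same order of groups. For both genes the ranges of all groups overlapped, and pooled AI differed from 0.5 in each group.

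From NEBNext (100 ng) to SMARTseq (10 ng) the AI of Slc7a7 and Slc7a8 moved in opposite directions. Slc7a7 shifted by -0.25 ± 0.08 in log2 odds (edgeR, adjusted p = 0.0426) and Slc7a8 by 0.26 ± 0.07 (adjusted p = 0.0142). The Slc7a7 call was lost without any of NEBNext replicates 3, 4 and 6 or SMARTseq (10 ng) replicates 1, 2, 4, 5 and 6 (adjusted p = 0.0600 to 0.111), and it was lost with DESeq2 (adjusted p = 0.0665). Both calls were lost with limma on logit AI (adjusted p = 0.115 and 0.104). Neither gene passed the AI test between the SMARTseq groups or between NEBNext (100 ng) and SMARTseq (100 pg).

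Slc6a19 encodes B0AT1, the main apical transporter of neutral amino acids, and Slc6a18 encodes the related transporter B0AT3. Both need a partner protein, collectrin in the kidney, to reach the membrane. The genes are neighbors on the minus strand of chromosome 13, with Slc6a18 (ENSMUSG00000021612) at chr13:73661752-73678023 and Slc6a19 (ENSMUSG00000021565) at chr13:73679745-73704865, 1721 bases apart. Slc6a19 overlaps the antisense gene Slc6a19os.

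Slc6a18 was at 672, 680.4 and 726 CPM in NEBNext (100 ng), 426, 449 and 462 CPM in SMARTseq (10 ng), and 334, 347 and 369 CPM in SMARTseq (100 pg). The 3 groups did not overlap each other. Slc6a18 fell by 0.26 ± 0.03 on the log2 scale from NEBNext (100 ng) to SMARTseq (10 ng) under TMM scaling (edgeR, adjusted p = 1.57e-08), and by a further 0.36 ± 0.03 to SMARTseq (100 pg) (adjusted p = 1.44e-07). With library totals the first of these Slc6a18 changes was -0.63.

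The library AI of Slc6a18 was 0.516, 0.527 and 0.541 in NEBNext (100 ng), 0.388, 0.417 and 0.423 in SMARTseq (10 ng), and 0.470, 0.499 and 0.530 in SMARTseq (100 pg). Each SMARTseq (10 ng) library lay below every other library, while NEBNext (100 ng) and SMARTseq (100 pg) overlapped. AI differed by -0.68 ± 0.05 in log2 odds between SMARTseq (10 ng) and NEBNext (100 ng) (edgeR, adjusted p = 3.02e-12) and by 0.53 ± 0.06 between SMARTseq (100 pg) and SMARTseq (10 ng) (adjusted p = 1.70e-04). Both calls stood when any library was left out. Between NEBNext (100 ng) and SMARTseq (100 pg) the difference was -0.15 ± 0.06, with a 95% interval from -0.27 to -0.03, and did not pass after adjustment (adjusted p = 0.187).

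Against 0.5, Slc6a18 had more maternal counts in NEBNext (100 ng) and more paternal counts in SMARTseq (10 ng). Its pooled AI was 0.527 over 26256 counts in NEBNext (100 ng) (QCC-corrected 95% interval 0.516 to 0.539, Bonferroni adjusted p = 0.0179) and 0.411 over 17123 counts in SMARTseq (10 ng). In SMARTseq (100 pg) it was 0.501 over 13818 counts and did not pass. The NEBNext call was lost without any of replicates 2 to 6 (adjusted p = 0.126 to 0.834), so only the shift in SMARTseq (10 ng) from 0.5 stood in every set of 5 libraries.

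The allele columns of Slc6a18 are given separately as a description. Maternal column counts averaged 364 ± 14 CPM in NEBNext (100 ng), 183 ± 7 CPM in SMARTseq (10 ng) and 174 ± 7 CPM in SMARTseq (100 pg) (mean ± SD, n = 6 libraries each). Paternal column counts averaged 326 ± 10, 263 ± 10 and 174 ± 12 CPM in the same order. The maternal column was thus 49.5% lower and the paternal column 19.1% lower in SMARTseq (10 ng) than in NEBNext (100 ng). From 10 ng to 100 pg the paternal column was 34.0% lower without overlap, while the maternal column was 4.90% lower and its ranges overlapped. These levels are scaled to library totals. The columns were not fitted under TMM scaling. For a TMM value, the log2 ratio was moved by the difference of the whole gene between its TMM and library total fits. From NEBNext (100 ng) to SMARTseq (10 ng) this gave -0.62 for the maternal column of Slc6a18, against -0.99 with library totals, and 0.06 against -0.31 for the paternal column. The sign of the paternal value at this step thus depended on the scaling, but the values have no SE and its direction is not settled. From 10 ng to 100 pg both scalings gave -0.60 for the paternal and -0.08 and -0.07 for the maternal column.

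**Figure D2:**
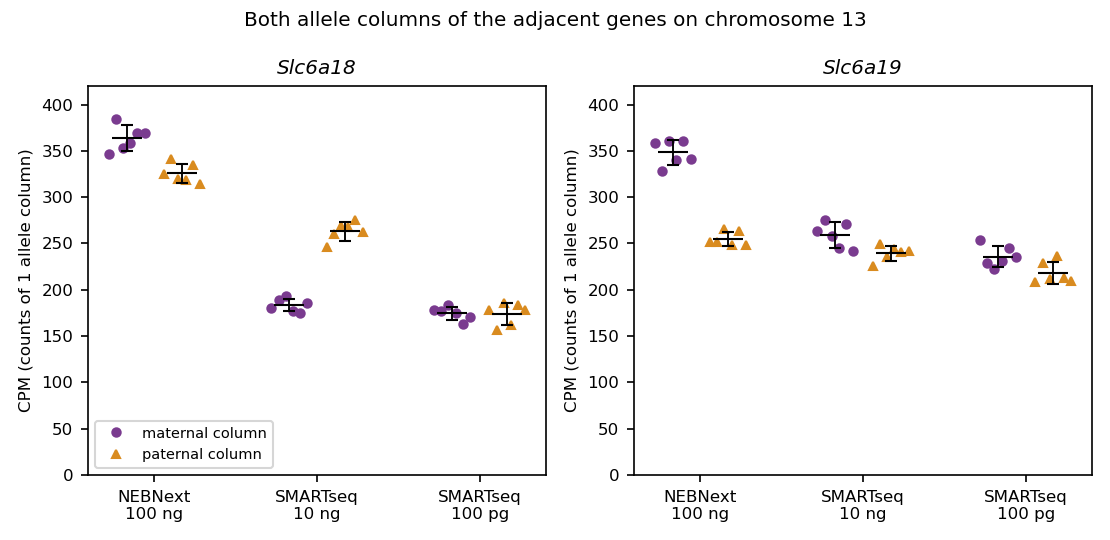
Level of the maternal (circles) and paternal (triangles) column of Slc6a18 and Slc6a19 (y axis, CPM of 1 allele column over the total allelic counts of the library, starting at 0) in the 6 libraries of each kidney group, with mean and SD (black lines and bars). For Slc6a18 the maternal column was above the paternal one in NEBNext (100 ng), below it in SMARTseq (10 ng) at 175 to 193 against 246 to 276 CPM, and level with it in SMARTseq (100 pg).

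Slc6a19 was at 580.1, 599 and 627 CPM in NEBNext (100 ng), 483, 492 and 524 CPM in SMARTseq (10 ng), and 433, 458 and 467 CPM in SMARTseq (100 pg). The groups did not overlap in CPM and stood in the same order as for Slc6a18. Under TMM scaling, however, Slc6a19 was 0.09 ± 0.03 higher in SMARTseq (10 ng) than in NEBNext (100 ng) (edgeR, adjusted p = 0.0156), and with library totals as the scale it was lower, with a log2 change of -0.27. For SMARTseq (100 pg) against NEBNext (100 ng), Slc6a19 differed by -0.06 ± 0.04 under TMM scaling (adjusted p = 0.165) and by -0.41 with library totals (adjusted p = 2.05e-09). At 10 ng the direction, and at 100 pg the call, thus depended on the scaling. The decrease of 0.14 ± 0.03 from 10 ng to 100 pg (adjusted p = 0.00158) had the same direction under both scalings.

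The library AI of Slc6a19 was 0.566, 0.578 and 0.587 in NEBNext (100 ng), 0.4995, 0.524 and 0.538 in SMARTseq (10 ng), and 0.494, 0.521 and 0.548 in SMARTseq (100 pg). All NEBNext libraries were above all SMARTseq libraries, and the SMARTseq groups overlapped almost wholly. AI differed by -0.34 ± 0.05 in log2 odds between SMARTseq (10 ng) and NEBNext (100 ng) (edgeR, adjusted p = 4.42e-06), and by -0.34 ± 0.06 between SMARTseq (100 pg) and NEBNext (100 ng) (adjusted p = 0.00128). The second of these calls was lost with limma on logit AI (adjusted p = 0.0719). Between the SMARTseq groups the difference was 0.00, with a 95% interval from -0.12 to 0.12 (adjusted p = 0.996).

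Slc6a19 differed from 0.5 in NEBNext (100 ng), with a pooled AI of 0.578 over 22975 counts (QCC-corrected 95% interval 0.566 to 0.589). In SMARTseq (10 ng) and SMARTseq (100 pg) the pooled AI of 0.519 and 0.520 did not pass. Its maternal column was 25.6% lower in SMARTseq (10 ng) than in NEBNext (100 ng), at 259 ± 14 against 348 ± 14 CPM (mean ± SD, n = 6 libraries each), while its paternal column was 5.91% lower and the ranges overlapped, both relative to library totals. Moved to TMM scaling as for Slc6a18, without an SE, the log2 change was -0.06 for the maternal and 0.27 for the paternal column of Slc6a19. With library totals these were -0.43 and -0.09. The AI of Slc6a18 and Slc6a19 does not depend on this scaling and was lower in SMARTseq (10 ng) than in NEBNext (100 ng) for both genes, while Slc6a18 alone of the 9 members had a called AI difference between the SMARTseq inputs.

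Slc6a20b (ENSMUSG00000025243, chr9:123590800-123632565, minus strand) belongs to the same family and lies 2204 bases from its paralog Slc6a20a, a proline transporter gene. Only uniquely aligned reads were kept, so reads that match both paralogs equally were lost from both, and its values are uncertain. It also overlaps Sacm1l. Slc6a20b was at 139, 156 and 169.9 CPM in NEBNext (100 ng), 99.0, 102 and 111 CPM in SMARTseq (10 ng), and 107, 117 and 126 CPM in SMARTseq (100 pg). The NEBNext libraries were above all SMARTseq libraries, and the SMARTseq groups overlapped.

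The decrease of Slc6a20b from NEBNext (100 ng) to SMARTseq (10 ng) was -0.22 ± 0.05 on the log2 scale (edgeR, adjusted p = 6.29e-04), against -0.59 with library totals. The difference of -0.06 ± 0.07 between NEBNext (100 ng) and SMARTseq (100 pg) did not pass under TMM scaling (adjusted p = 0.427) but was -0.41 and passed with library totals as the scale. Between the SMARTseq inputs it was 0.17 ± 0.05 higher at 100 pg (adjusted p = 0.0466), a call lost without any of SMARTseq (10 ng) replicates 1, 2, 3, 4 and 6 or SMARTseq (100 pg) replicates 1, 2, 3 and 5 (adjusted p = 0.0566 to 0.104). Its library AI ran from 0.443 to 0.503 in NEBNext (100 ng), 0.419 to 0.510 in SMARTseq (10 ng) and 0.428 to 0.584 in SMARTseq (100 pg). No AI difference of Slc6a20b between groups passed, and its AI did not differ from 0.5 after Bonferroni adjustment. With Benjamini-Hochberg adjustment it did in NEBNext (100 ng) (pooled AI 0.469, adjusted p = 0.0334) and SMARTseq (10 ng) (pooled AI 0.457, adjusted p = 6.59e-04).

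Slc1a1 (ENSMUSG00000024935, chr19:28835049-28913960, plus strand) encodes EAAC1, the apical carrier of glutamate and aspartate, and overlaps Gm5822 and 4430402I18Rik on the opposite strand. It had the fewest counts of the 9 genes, with 777, 302 and 247 pooled over NEBNext (100 ng), SMARTseq (10 ng) and SMARTseq (100 pg). Its level was 17.9, 20.2 and 22.7 CPM in NEBNext (100 ng), 5.32, 8.37 and 9.43 CPM in SMARTseq (10 ng), and 4.23, 6.65 and 8.01 CPM in SMARTseq (100 pg). All NEBNext libraries were above all SMARTseq libraries. The log2 change from NEBNext (100 ng) was -1.01 ± 0.14 for SMARTseq (10 ng) (edgeR, adjusted p = 4.51e-07) and -1.35 ± 0.18 for SMARTseq (100 pg) (adjusted p = 1.14e-06), the lowest value of any member in that comparison. With library totals these Slc1a1 changes were -1.37 and -1.71.

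Slc1a1 had more paternal counts in 17 of 18 libraries, and the exception was SMARTseq (10 ng) replicate 4 at an AI of 0.512. Its pooled AI was 0.331 in NEBNext (100 ng) (QCC-corrected 95% interval 0.273 to 0.394, Bonferroni adjusted p = 0.00402), a call lost without replicate 1 (AI 0.352, adjusted p = 0.226) or replicate 4 (AI 0.341, adjusted p = 0.134). In the SMARTseq groups the pooled AI of 0.421 and 0.405 did not pass at this depth, though SMARTseq (10 ng) did with limma on logit AI (Benjamini-Hochberg adjusted p = 0.0399). The AI difference between SMARTseq (10 ng) and NEBNext (100 ng) was 0.57 ± 0.28 in log2 odds and did not pass (edgeR, adjusted p = 0.232).

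**Figure D3:**
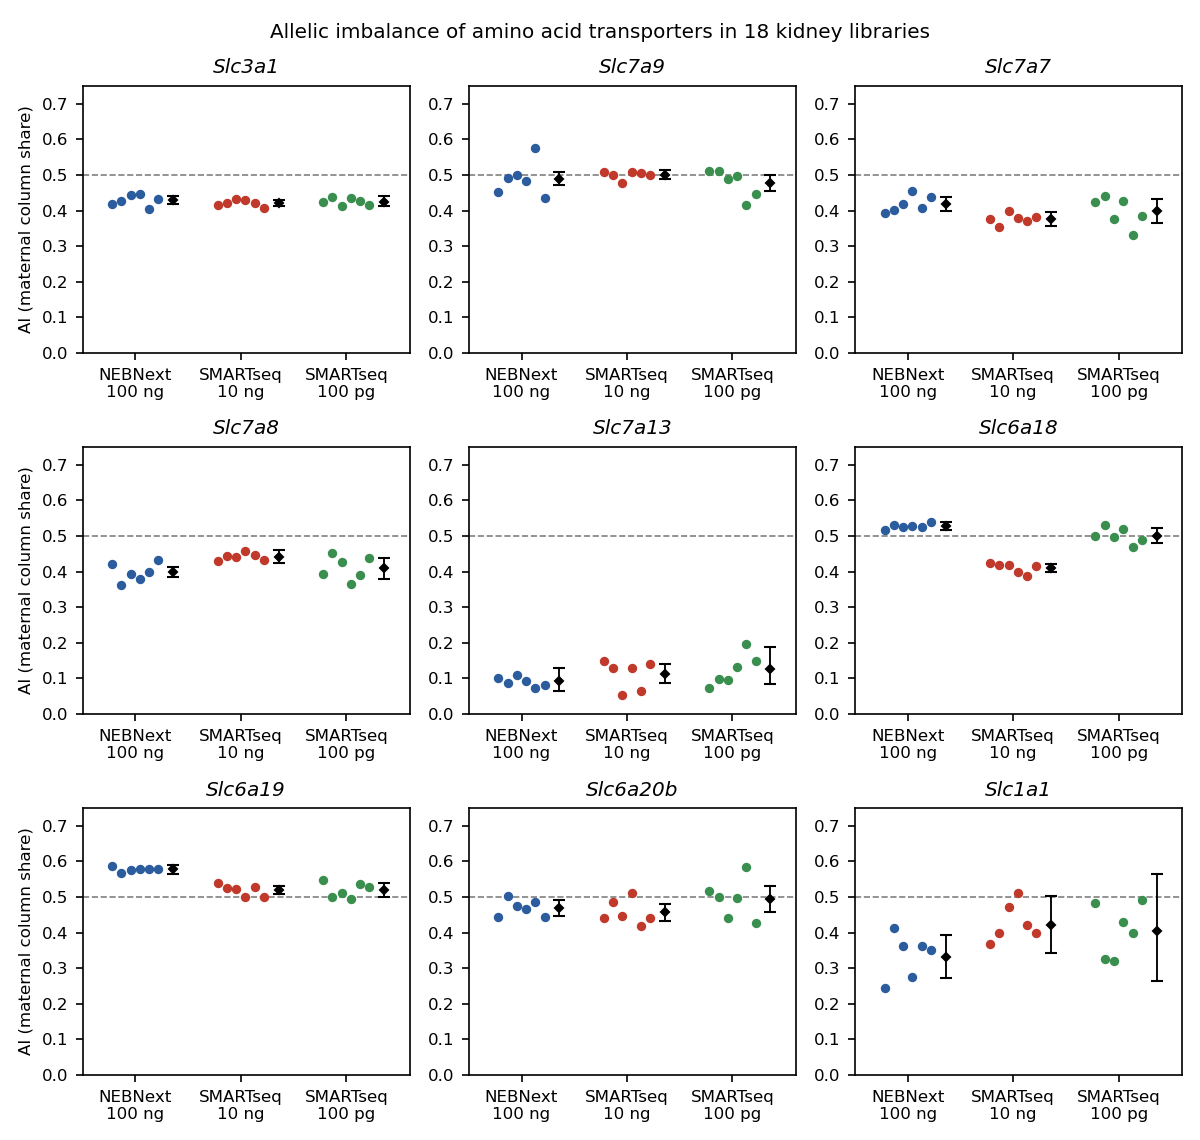
AI of each of the 9 transporters (y axis, share of allelic counts in the maternal column) in the 6 libraries of each kidney group (coloured points), beside the pooled AI with its QCC-corrected 95% interval (black diamonds and bars). The dashed line marks 0.5. Slc7a13 stayed below 0.2 in every library, and the 6 SMARTseq (10 ng) points of Slc6a18 lie below all its other points.

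Counts of called members are given beside the share of all genes called in the same comparison. From NEBNext (100 ng) to SMARTseq (10 ng), 9 of 9 were called by edgeR, against 77.5% of all genes tested, with 4 higher and 5 lower (38.1% and 39.4% of all genes). From NEBNext (100 ng) to SMARTseq (100 pg), 6 of 9 were called against 69.5% of all genes, with 2 higher and 4 lower (34.7% and 34.8%). Between SMARTseq (10 ng) and SMARTseq (100 pg), 5 of 9 were called against 15.8% of all genes. At the lower input Slc7a7, Slc7a8 and Slc6a20b were higher, where 8.8% of all genes were, and Slc6a18 and Slc6a19 lower, where 7.02% were. These comparisons share libraries with each other. Most members are deeply counted, while all genes tested include those with a mean of 10 counts. Smaller changes are found at more counts, so the shares in this paragraph do not compare like with like. The ranges of 7, 3 and 7 members did not overlap in CPM in the NEBNext (100 ng) to SMARTseq (10 ng), SMARTseq (10 ng) to SMARTseq (100 pg) and NEBNext (100 ng) to SMARTseq (100 pg) comparisons, against 63.4%, 9.15% and 55.3% of all genes.

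The scaling shifted the log2 changes between NEBNext and SMARTseq, and it turned the direction of 2 member values. TMM scaling assumes that most genes keep their level, and library totals do not make this assumption. Under library totals the median log2 change of all genes was -0.40 from NEBNext (100 ng) to SMARTseq (10 ng), against -0.04 under TMM, and the share of called genes that were higher was 34.8% against 49.1%. For SMARTseq (100 pg) against NEBNext (100 ng) the median was -0.39 against -0.04 and the share 35.0% against 49.9%. Under library totals, 2 members were called higher and 6 lower in each of these comparisons. Slc3a1 and Slc7a9 were higher, and Slc7a7, Slc7a8, Slc6a18 and Slc1a1 lower, in both SMARTseq groups than in NEBNext (100 ng) under either scaling. Slc6a19 turned from higher to lower at 10 ng, and Slc7a13 from 0.28 to -0.07 at 100 pg.

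**Figure D4:**
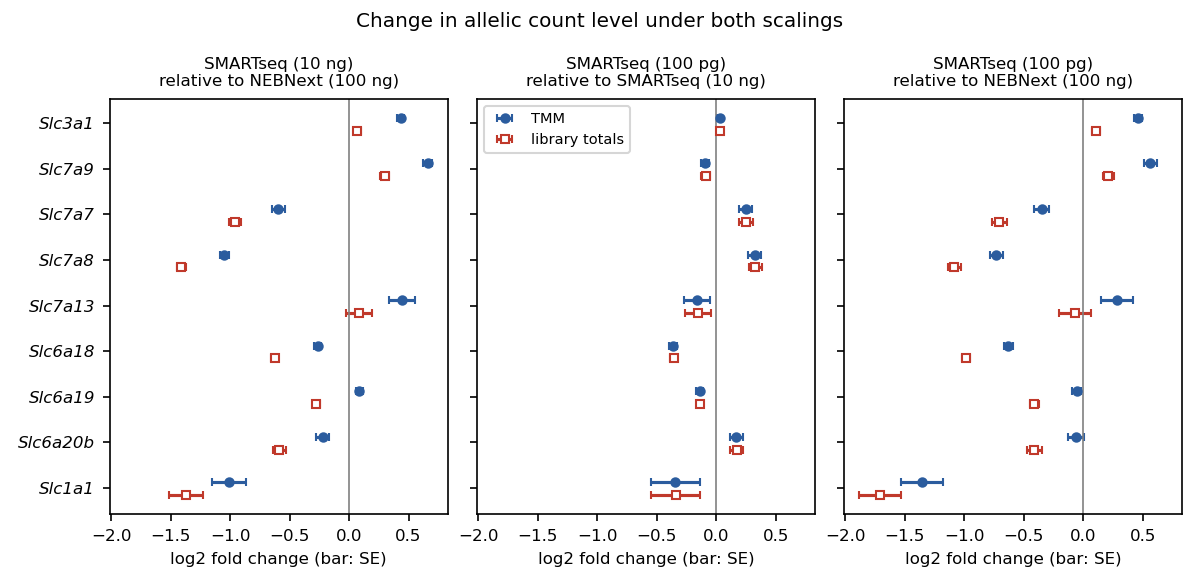
Log2 fold change of the level of each transporter (x axis, second group relative to first, bars show SE derived from the edgeR F statistic) in the 3 comparisons, with TMM scaling (filled circles) and with library totals (open squares). Both scalings nearly coincide between the SMARTseq groups, while in the comparisons with NEBNext (100 ng) the open squares lie to the left, which puts Slc6a19 on the other side of 0 at 10 ng and Slc7a13 at 100 pg.

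In NEBNext (100 ng) the AI of 7 of 9 members differed from 0.5, against 16.6% of all genes with 50 pooled counts, in SMARTseq (10 ng) 5 of 9 against 22.7%, and in SMARTseq (100 pg) 4 of 9 against 12% (QCC-corrected proportional test with Bonferroni correction). Slc3a1, Slc7a7, Slc7a8 and Slc7a13 were called in all 3 groups with more paternal counts, Slc6a18 in NEBNext (100 ng) and SMARTseq (10 ng) with opposite signs, and Slc6a19 and Slc1a1 in NEBNext (100 ng). Of all genes, 8.69% were called with more maternal and 7.88% with more paternal counts in NEBNext (100 ng), 12.1% and 10.6% in SMARTseq (10 ng), and 6.24% and 5.78% in SMARTseq (100 pg). The members are deeply counted, and the test finds smaller shifts at more counts, so these shares do not compare like with like. The median distance of AI from 0.5 was 0.0777, 0.0777 and 0.0744 for the members and 0.0517, 0.0549 and 0.0632 for all genes in the 3 groups.

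Between groups, AI differed by edgeR for 4 of 9 members from NEBNext (100 ng) to SMARTseq (10 ng), against 10.6% of all genes tested. Of these Slc7a8 had a higher and Slc7a7, Slc6a18 and Slc6a19 a lower AI in SMARTseq (10 ng), as had 5.61% and 4.95% of all genes. From SMARTseq (10 ng) to SMARTseq (100 pg) 1 member differed, Slc6a18, against 0.659% of all genes (0.319% higher and 0.339% lower). From NEBNext (100 ng) to SMARTseq (100 pg) 1 member differed, Slc6a19, against 6.24% of all genes (3.32% higher and 2.92% lower). The library ranges of AI did not overlap for 2, 1 and 1 members in these comparisons, against 6.32%, 1.16% and 4.89% of all genes. Here too most members are counted deeply, while all genes tested include those with 10 counts per library, so the shares do not compare like with like.

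The spread of the level between replicate libraries was 1.53% to 23.5% of the mean for single members. The median coefficient of variation of the 9 members was 5.57%, 4.98% and 6.62% in NEBNext (100 ng), SMARTseq (10 ng) and SMARTseq (100 pg), against 14.6%, 12.1% and 20.2% for all genes with a mean of 10 counts. Counting error alone is smaller for these deeply counted genes, so the spread of AI is given relative to it. The binomial SD used for this takes each count as a separate read, which reads over several SNPs are not. The SD between libraries was at the median 1.52, 1.31 and 2.33 times the binomial SD for the members and 1.68, 1.32 and 2.24 times for all genes with 10 counts in each library of the group.

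For 8 of the members, the gene whose level followed it most closely over the 18 libraries was taken by the smallest root mean square difference of centred log2 CPM among genes with a mean of 100 counts. Slc6a19 was closest to Selenop (0.04), Slc3a1 to Napsa (0.05), Slc7a9 to Ftl1 (0.06), Slc6a18 to 4931406C07Rik (0.06), Slc6a20b to Hspa5 (0.09), Slc7a7 to Lman2 (0.09), Slc7a13 to Tpm1 (0.14) and Slc1a1 to B3gat2 (0.24). The 18 libraries share 1 RNA and 3 preparations, and a gene that changes little is close to many others, so this measure describes these libraries only.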

How the data were processed

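Allelic counts were analysed for 18 mouse kidney libraries, and counts of the 9 genes were looked up in 6 libraries of the B-cell clones Abl.1 and Abl.2. The authors aligned reads with STAR 2.5.4a to pseudogenomes of 129S1 and Cast/Ei on GRCm38, kept uniquely aligned reads, sampled the alignments of a group to the same size, counted alleles per SNP with samtools mpileup and summed them over merged exons without regions shared by genes. The deposited values hold whole-number counts for each gene and library, split into a maternal and a paternal column and not normalized. The deposited AI tables of the authors were not used.

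Abundance was tested with edgeR's quasi-likelihood test on summed columns (mean of at least 10 counts, TMM). AI differences were tested in edgeR by the interaction of allele and group, next to a term per library (at least 10 counts in each library). Both used Benjamini-Hochberg adjustment over all genes at 0.05. AI against 0.5 was tested with a two-sided proportional test on pooled counts divided by the square of QCC, following the method of the study, with Bonferroni correction over genes with at least 50 pooled counts. QCC was computed on counts thinned to the smallest library for NEBNext (100 ng), whose totals differed by more than 5%. Intervals of pooled AI in the kidney groups are 95% Wilson intervals on these corrected counts, unless given as before QCC. In the B-cell clones they are on uncorrected counts. The SE of an edgeR change is its absolute log2 value divided by the square root of the F statistic. Intervals of log2 changes use a normal quantile on this SE and are somewhat narrower than the test implies. None of these intervals covers variation between animals. Procedures were tested on simulated data. Alternatives were DESeq2, limma on logit AI (each count raised by 0.5), library totals, other filters, all 18 libraries in 1 fit, a replicate term, and each library left out in turn.

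The members, the lists of other transport genes and cell type markers, and the tests were chosen with earlier results of these data known. Named genes are the members, their subunits, partners and paralogs, of the other transport genes the 2 called with the largest change in a test, and 1 gene most like each member, which for Slc7a8 is not reported here. Of 9 members, 7 matched RefSeq promoter windows. R 4.3.3 with edgeR 4.0.16, limma 3.58.1 and DESeq2 1.42.0 and Python 3.11.15 with numpy 2.4.6, pandas 2.3.3, scipy 1.17.1 and matplotlib 3.10.9 were used.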

Additional observations from a re-analysis of the deposited data

Results flagged for a closer look

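Some values stood apart in the replicate libraries, and Slc7a7 had counts outside the kidney. Of 54 groups of 6 values examined, 3 held a library far from the others, and chance alone gives about 1 in 20. Slc3a1 was at 756 CPM in SMARTseq (10 ng) replicate 6, where the nearest library was at 785 CPM. The AI of Slc7a9 was 0.478 in SMARTseq (10 ng) replicate 3, where the nearest library was at 0.4995. Slc7a8 was at 155 CPM in SMARTseq (100 pg) replicate 2, where the nearest library was at 185 CPM.

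In the clonal B-cell lines Abl.1 and Abl.2, Slc7a7 had 388 pooled counts in Abl.1, 449 in Abl.2 and 442 in the second sequencing run of the Abl.2 libraries, at 6.30 to 12.2 CPM per library. Its pooled AI was 0.549 in Abl.1 (95% Wilson interval 0.499 to 0.598), 0.982 in Abl.2 (0.965 to 0.991) and 0.923 in the second run (0.894 to 0.944). These intervals have no QCC correction, and those of the Abl.2 runs do not overlap although the same libraries were sequenced. The paternal column held 2 counts in the first run and 24 in the second for replicate 1, and 6 and 10 for replicate 2. Most Abl.2 counts were thus in the maternal column in both runs, while in the kidney libraries the AI of Slc7a7 lay between 0.333 and 0.456. The column names were checked with imprinted genes in the kidney only, so the maternal column may not stand for the same strain in the clones. No test across these tissues was made. Of the other members, Slc3a1 had 5 to 16 pooled counts in these groups and Slc6a20b 2 in the second run, and the remaining 6 had 0 counts, which allows up to 0.134 to 0.156 CPM per library (3 counts).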

How the results depend on the processing

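Scaling by library totals turned Slc6a19 abundance in SMARTseq (10 ng) against NEBNext (100 ng) to -0.27 and Slc7a13 abundance in SMARTseq (100 pg) against NEBNext (100 ng) to -0.070, by its construction, since the median of all genes moved too. With limma on logit AI, 2 members differed in AI between NEBNext (100 ng) and SMARTseq (10 ng) instead of 4 (3 with DESeq2, which lost Slc7a7), and 0 instead of 1 between NEBNext (100 ng) and SMARTseq (100 pg). The cause was not tested. Across all genes, AI calls were 1069 with edgeR and 691 with limma for NEBNext (100 ng) against SMARTseq (10 ng), and 66 with edgeR, 26 with limma, 101 with DESeq2 and 28 with the replicate block between the SMARTseq groups. AI calls against 0.5 rose from 2040, 2713 and 1456 genes to 4107, 3995 and 4601 without QCC and to 4313, 5174 and 3300 with Benjamini-Hochberg adjustment.

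With each library left out in turn, members called were 9 to 9, 4 to 5 and 6 to 7 for abundance, 3 to 4, 1 to 1 and 1 to 1 for AI differences, in the order NEBNext (100 ng) to SMARTseq (10 ng), SMARTseq (10 ng) to SMARTseq (100 pg), NEBNext (100 ng) to SMARTseq (100 pg), and 5 to 6, 5 to 5 and 4 to 4 for AI against 0.5 in NEBNext (100 ng), SMARTseq (10 ng) and SMARTseq (100 pg). Uncalled values near 0 or 0.5 changed sign. These were the log2 odds differences of Slc7a9 (-0.0016 to 0.16) between NEBNext (100 ng) and SMARTseq (10 ng), of Slc6a19 (-0.029 to 0.033) between the SMARTseq groups, and of Slc3a1 (-0.049 to 0.00019) and Slc7a9 (-0.13 to 0.035) between NEBNext (100 ng) and SMARTseq (100 pg). They also include the AI of Slc7a9 in SMARTseq (10 ng) (0.498 to 0.505) and of Slc6a18 (0.495 to 0.507) and Slc6a20b (0.477 to 0.507) in SMARTseq (100 pg).

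Replicate numbers are those of the sample titles, and the separate library replicate label gives other numbers for many libraries. The numbers are shared between groups, but same-numbered libraries did not deviate together (correlations of -0.037 to 0.025, with 0 to 3 of the 6 numbers correlating best with their own number), so the numbers pair nothing. With the replicate block, 9, 4 and 6 members were called for abundance and 3, 1 and 1 for AI in the same order of comparisons. The block removed the calls of Slc6a20b abundance between the SMARTseq groups (0.17, adjusted p = 0.0965) and of Slc7a7 AI between NEBNext (100 ng) and SMARTseq (10 ng) (-0.26, adjusted p = 0.0570) and no other member's call.

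Slc6a20b abundance between the SMARTseq groups also missed the threshold without a filter on low counts (adjusted p = 0.0817) and with all 18 libraries in 1 fit (adjusted p = 0.0524), and Slc7a13 abundance for SMARTseq (100 pg) against NEBNext (100 ng) passed in the latter (adjusted p = 0.0369). Without QCC, AI against 0.5 was also called for Slc6a20b in NEBNext (100 ng) and SMARTseq (10 ng), for Slc6a19 in both SMARTseq groups and for Slc7a9 in SMARTseq (100 pg). With Benjamini-Hochberg adjustment, 8, 7 and 4 members were called, adding Slc6a20b in NEBNext (100 ng), and Slc6a20b and Slc6a19 (adjusted p = 8.81e-04) in SMARTseq (10 ng). In the test of AI against 0.5 by limma on logit AI, the Slc6a18 call in NEBNext (100 ng) was lost (adjusted p = 0.125). Slc1a1 in SMARTseq (10 ng) was gained (AI 0.429, adjusted p = 0.0399). The fewest counts behind a value are those of Slc1a1, whose AI in SMARTseq (100 pg) rests on 247 counts, with a 95% Wilson interval of 0.346 to 0.467 before QCC. All kidney values rest on 1 animal.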

Other observations

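Of 49 further amino acid transport genes listed, 48 were in the kidney table and 40 had a count. Between NEBNext (100 ng) and SMARTseq (10 ng), 24 of 30 tested (80%, against 77.5% of all genes) were called different in level by edgeR, 5 higher and 19 lower, and 3 higher and 22 lower when library totals were the scale. The genes with the largest change were Slc7a12, a light chain gene of the Slc7 family, at 1.99 ± 0.04 on the log2 scale (± SE), and Slc15a2, a peptide transporter gene, at 1.78 ± 0.10. For SMARTseq (100 pg) against NEBNext (100 ng), 20 of 30 (66.7%, against 69.5% of all genes) were called, 4 higher and 16 lower, again with Slc7a12 (2.10 ± 0.05) and Slc15a2 (1.77 ± 0.12). These genes also had the largest AI differences, at 1.06 ± 0.07 in log2 odds for Slc7a12 and 2.07 ± 0.19 for Slc15a2 between NEBNext (100 ng) and SMARTseq (10 ng), where 3 of 27 genes tested (11.1%, against 10.6% of all genes) were called. The third was Slc3a2, the heavy chain partner of Slc7a7 and Slc7a8, at 0.16 ± 0.04 (edgeR, adjusted p = 0.00473), which missed the threshold with limma (adjusted p = 0.213). For SMARTseq (100 pg) against NEBNext (100 ng), 2 of 25 (8%, against 6.24% of all genes) were called, Slc7a12 at 1.06 ± 0.08 and Slc15a2 at 1.86 ± 0.23.

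Between SMARTseq (10 ng) and SMARTseq (100 pg), 8 of 30 (26.7%, against 15.8% of all genes) were called in level and all 8 were higher at 100 pg, among them Slc6a12, a betaine transporter gene (1.16 ± 0.38), and Slc6a6, the taurine transporter gene (0.45 ± 0.05). In AI, 0 of 24 were called between these groups by edgeR, against 0.659% of all genes, 2 at an unadjusted p under 0.05, and 0 by DESeq2 or limma. The median log2 change in level was -0.57, 0.12 and -0.39 for these genes in the comparisons NEBNext (100 ng) to SMARTseq (10 ng), SMARTseq (10 ng) to SMARTseq (100 pg) and NEBNext (100 ng) to SMARTseq (100 pg). It was -0.22, -0.09 and -0.06 for the 9 members, and -0.04, 0.00 and -0.04 for all genes.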
